A study of Mus musculus with 6 samples.

Results

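Nuclear genes for the subunits of respiratory chain complexes I, III and IV and of ATP synthase (complex V) were compared between WT and IG27 glial cells. Members were taken by symbol alone, as the genes named *Ndufa*, *Ndufb*, *Ndufc*, *Ndufs*, *Ndufv* or *Ndufab* with a number, and those whose symbols begin with *Uqcr*, with *Cox4* to *Cox8*, or with *Atp5*. Of 103 mouse genes with such symbols, 80 had an array probe that could be named through its accession. Of these, 78 were tested together with all other genes above background, 14898 genes in total. The tested members comprised 38 genes of complex I, 8 of complex III, 15 of complex IV and 17 of complex V. *Cox8b* and *Cox8c*, which encode muscle and testis isoforms of a small complex IV subunit, had probes that were not well above background on every array of either group and were not tested. The 23 symbols without a named probe were pseudogenes except for *Ndufb1*, *Ndufb4b*, *Ndufb4c* and *Cox5b*, which were not analysed here. The name does not always give the place of a protein, since *Ndufa4* is counted here with complex I although its product is now assigned to complex IV. Its paralog *Ndufa4l2* is likewise counted with complex I by its symbol alone.

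Both groups derive from OS3, a glial cell line from brain of C3H mice (C3H/HeN in the study's methods) that was immortalized with SV40. WT cells carried the empty vector, and IG27 cells carried a plasmid for the histone variant H3.3 with the K27M substitution (H3.3K27M). Each group was sampled as 3 separate dishes after 2 days in serum-containing medium with insulin and glucose, and each RNA was hybridized to 1 single-color mouse array of the same slide. IG27 cells were established from drug-selected clones, and nothing states whether the 3 dishes came from more than 1 clone. The dishes therefore measure the spread within these cultures, and an effect of the histone mutation and a property of the selected cells cannot be told apart.

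Complex I takes electrons from NADH and complex III passes them from ubiquinol to cytochrome *c*. Complex IV hands them to oxygen, and ATP synthase uses the resulting proton gradient to make ATP. Most subunits are encoded in the nucleus and are made in fixed proportions, while a small catalytic set is encoded by mitochondrial DNA. Several complex IV subunits exist in alternative isoforms, a ubiquitous form and a form typical of heart and skeletal muscle, testis or lung.

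Values are log2 of the processed intensity minus the 75th percentile of the array, so they serve to compare 1 probe between arrays and not different genes with each other. A gene is said to have risen or fallen in IG27 cells where the adjusted p of limma (Benjamini-Hochberg over all 14898 genes) was under 0.05. Differences between the cultures were widespread, with 70.5% of all genes called. On the 5 arrays whose scanner output is complete, 58.8% to 61.2% of the probes were well above background, as were all 78 members on every one of them. Of 7 glial progenitor markers, 6 were well above background on every complete WT array and 7 on every complete IG27 array. Markers of other cell types were partly present, with 2 of 4 neuronal, 2 of 4 microglial, 2 of 3 endothelial and 4 of 5 fibroblast genes passing the filter. Among these, the neuronal *Tubb3* fell by 2.63 ± 0.06 (SE) and *Snap25* differed by −0.11 (adjusted p = 0.41). The microglial *Aif1*, well above background on 1 of 3 WT arrays, rose by 1.66 ± 0.30 (SE) and *Tmem119* fell by 0.76 ± 0.08 (SE). The endothelial *Kdr* and the fibroblast gene *Dcn* rose from signals not well above background on any WT array. The endothelial *Pecam1* fell by 0.27 ± 0.08 (SE). Of the other fibroblast genes, *Col3a1* rose by 1.57 ± 0.05 (SE), whereas *Col1a1* fell by 0.92 ± 0.05 (SE) and *Pdgfrb* by 1.16 ± 0.04 (SE). The part of these genes in the results on the respiratory chain was not tested. The array cannot read the mutated codon, and its probe for *H3f3a*, the gene modified on the plasmid, gave 6.84 ± 0.13 (SD, n = 3) in WT and 6.58 ± 0.05 (SD, n = 3) in IG27 cells, a fall of 0.26 ± 0.08 (SE; adjusted p = 0.0237).

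Respiratory chain and ATP synthase genes fell more often than they rose in IG27 cells, as did all genes tested. Of the 78 members, 35 fell (44.9%) and 9 rose (11.5%), against 40.0% of all genes called lower and 30.5% called higher. Their median log2 difference, IG27 minus WT, was −0.13, and that of all genes tested was −0.07. The split depended on the normalization, with 33 falls and 17 rises after quantile normalization and 32 falls and 21 rises after normexp background correction. Of all genes, 38.9% were called lower and 33.8% higher after quantile normalization, and 37.0% and 32.1% after normexp. Every one of the 44 called members kept its sign under the 16 alternative settings that were fitted. Most members were read by bright probes, since 73 of them lay above the median signal of all genes. Among the 7449 genes above that median, 46.0% were called lower and 26.1% higher, and among the 73 members 34 (46.6%) fell and 8 rose.

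Most changes were small. The median size of the difference was 0.30 on the log2 scale for the members and 0.46 for all genes tested. A rise of at least 2-fold was called in 2 members and a fall of that size in 4, which are 2.56% and 5.13% of the members, against 11.5% and 11.7% of all genes. The WT and IG27 values did not overlap in 50 of 78 members (64.1%), and in 75.7% of all genes. When each member was set against its own mean over the arrays, the median deviation was 0.11, 0.05 and 0.10 in WT replicates 1, 2 and 3, and 0.01, −0.14 and −0.12 in IG27 replicates 1, 2 and 3. Over all members, the WT arrays thus lay above the IG27 arrays, with IG27 replicate 1 nearest to the WT arrays. This order did not hold within complex IV, with 0.09, 0.03 and −0.03 in WT replicates 1, 2 and 3. The IG27 replicates had 0.12, −0.09 and 0.03 there. In whole cultures, fewer cells expressing a gene and less RNA per cell cannot be told apart.

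**Figure D1:**
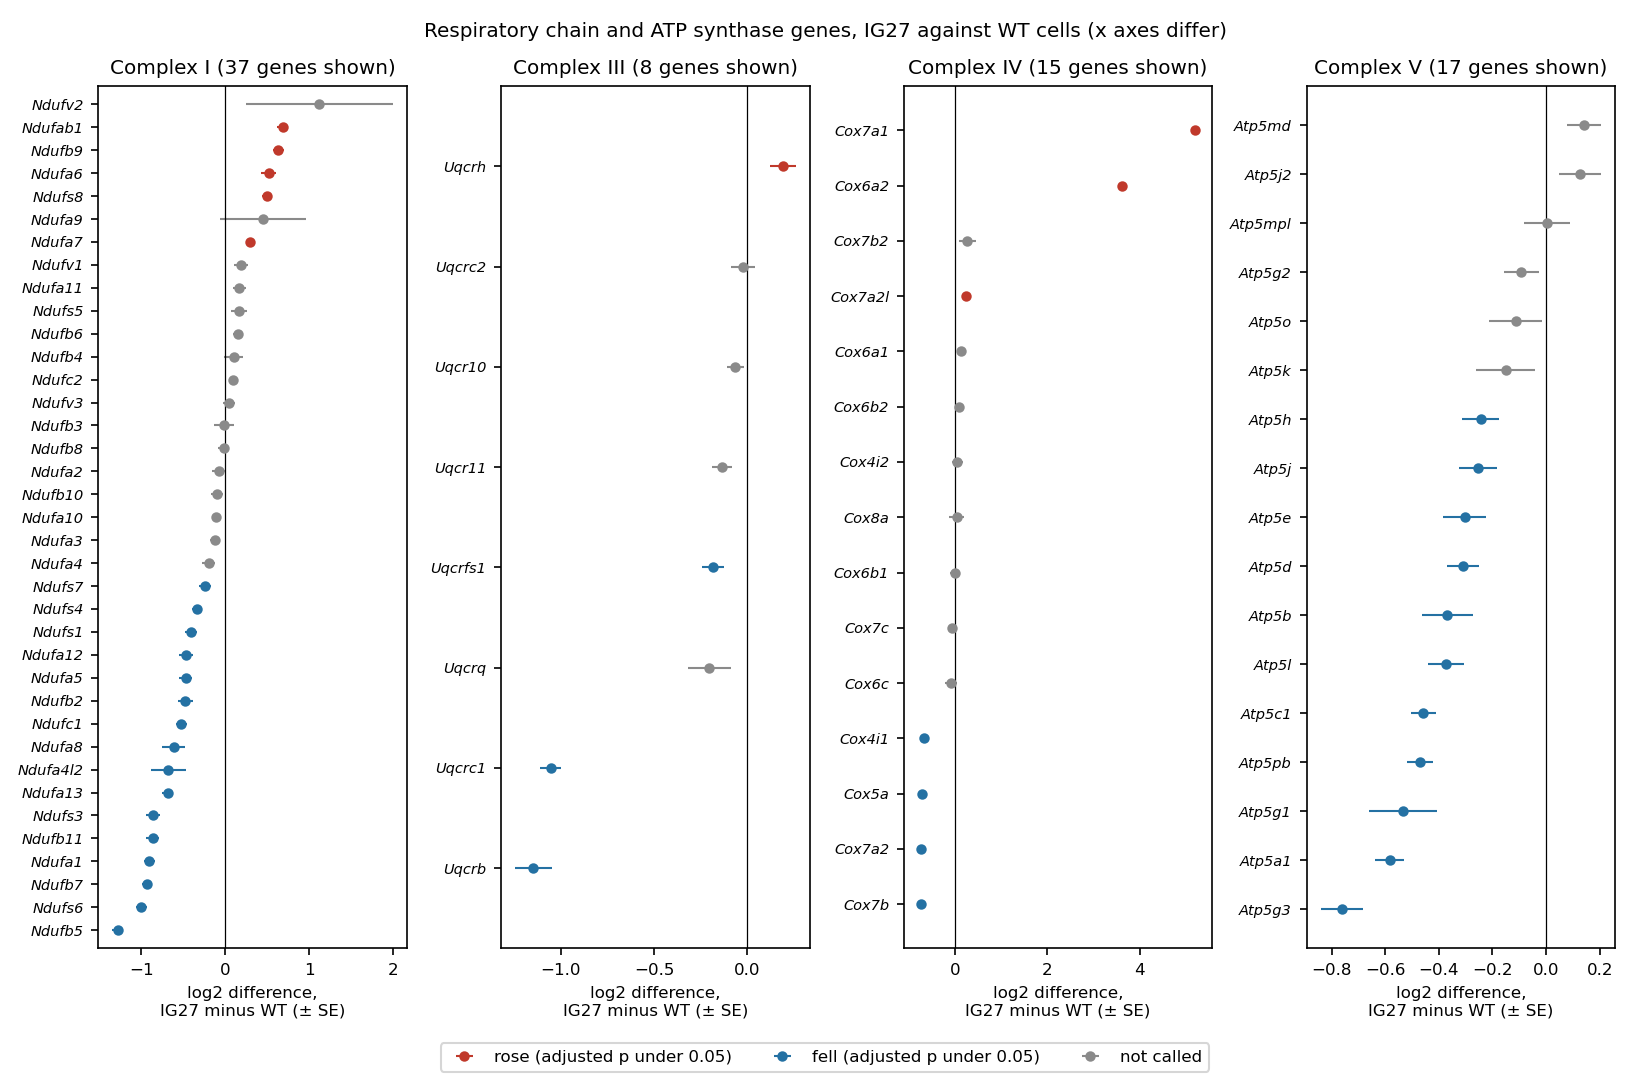
Log2 difference between IG27 and WT cells for 77 of the tested members, by complex, with the standard error of the limma fit as bars; the x axes of the 4 panels differ. Complex V holds 11 falls and no rise, and *Cox7a1* and *Cox6a2* of complex IV stand at 5.20 and 3.61.

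The 2 members with the largest differences were muscle isoforms of complex IV, whereas the probe of another muscle isoform, *Cox8b*, was not well above background on any complete array. *Cox7a1*, the heart and skeletal muscle form of subunit 7a, had log2 signals of −0.95, −1.04 and −0.91 in the WT replicates and of 4.20, 4.18 and 4.31 in the IG27 replicates. The groups did not overlap, and the difference of 5.20 ± 0.06 (SE) corresponded to a 36.8-fold higher signal in IG27 cells (adjusted p = 7.43e-08). *Cox6a2*, the muscle form of subunit 6a, had −2.29, −2.30 and −2.13 in WT and 1.49, 1.32 and 1.28 in IG27 cells. This was a rise of 3.61 ± 0.08 (SE), or 12.2-fold (adjusted p = 3.40e-07), again without overlap. Each of these genes was read by 1 named probe. Of 4 muscle markers, *Acta1* (skeletal actin) rose by 0.58 ± 0.10 (SE) and *Myh7* (a slow myosin heavy chain) fell by 1.32 ± 0.14 (SE), *Tnnt2* (cardiac troponin T) differed by −0.04 (adjusted p = 0.51), and *Ckm* (muscle creatine kinase) did not pass the filter. The part of muscle genes in the isoform result was not tested.

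The ubiquitous partner *Cox7a2* fell, and *Cox6a1* was not called. *Cox7a2* had 6.33, 6.17 and 6.25 in the WT replicates and 5.53, 5.45 and 5.60 in the IG27 replicates, a fall of 0.72 ± 0.07 (SE; adjusted p = 0.000119). *Cox6a1* had 7.97, 7.98 and 8.02 in WT and 8.19, 8.07 and 8.10 in IG27 cells, and its difference of 0.13 (95% interval 0.00 to 0.26) missed the threshold (adjusted p = 0.0635), without overlap between the groups. It was called higher after quantile normalization (0.19, adjusted p = 0.0159) and after normexp (0.19, adjusted p = 0.0230). The third relative of *Cox7a1*, *Cox7a2l*, which encodes a protein joining complexes III and IV in supercomplexes, rose by 0.23 ± 0.08 (SE; adjusted p = 0.0375), a call that was lost when any of 4 arrays was left out. Relative to *Cox7a2* on the same array, *Cox7a1* shifted by 5.93 on the log2 scale, and relative to *Cox6a1*, *Cox6a2* shifted by 3.48. In both cases the 3 arrays of a group did not overlap those of the other, and the two-sided exact permutation p was 0.1, the smallest that 3 against 3 arrays can give (adjusted p = 0.117 over 7 pairs of isoforms).

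The sequences before the transcription start are shown for *Cox7a1* and *Cox7a2*, which moved apart in level, and for *Cox6a1*, which carries recognition motifs of regulators of respiratory genes. They are the 250 bases upstream of the start in the RefSeq promoter table (assembly GRCm38.p6), 5′ to 3′ on the strand of the gene. *Cox7a1* lies at chr7:30183921-30184170 on the plus strand, *Cox7a2* at chr9:79759854-79760103 on the minus strand and *Cox6a1* at chr5:115348959-115349208 on the minus strand. Capitals mark matches to the motifs GCGCATGCG of NRF1 and CCGGAAG of ETS factors such as GABP, on either strand; the NRF1 motif and its reverse complement overlap in *Cox6a1*.
Cox7a1: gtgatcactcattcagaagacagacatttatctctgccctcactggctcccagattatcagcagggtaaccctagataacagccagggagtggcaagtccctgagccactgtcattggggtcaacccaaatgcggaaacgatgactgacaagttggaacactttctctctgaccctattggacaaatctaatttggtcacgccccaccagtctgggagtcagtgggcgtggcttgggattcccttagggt
Cox7a2: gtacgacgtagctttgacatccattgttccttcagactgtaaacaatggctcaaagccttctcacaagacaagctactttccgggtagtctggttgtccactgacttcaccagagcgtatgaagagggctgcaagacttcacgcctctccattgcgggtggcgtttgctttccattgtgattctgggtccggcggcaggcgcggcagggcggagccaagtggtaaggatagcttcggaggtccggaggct
Cox6a1: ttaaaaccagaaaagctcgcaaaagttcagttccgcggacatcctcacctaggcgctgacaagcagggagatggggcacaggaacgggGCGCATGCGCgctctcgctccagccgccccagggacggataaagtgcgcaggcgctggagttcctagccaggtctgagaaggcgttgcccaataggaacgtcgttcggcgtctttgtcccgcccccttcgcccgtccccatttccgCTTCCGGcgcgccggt

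The remaining complex IV genes separated into a few clear falls and a group with small differences. Besides *Cox7a2*, the genes that fell were *Cox7b*, *Cox5a* and *Cox4i1*, which encode structural subunits around the catalytic core. *Cox4i1*, the ubiquitous form of the largest nuclear subunit, had 7.11, 7.15 and 7.16 in WT and 6.59, 6.50 and 6.33 in IG27 cells (−0.67 ± 0.08 SE, adjusted p = 0.000344). *Cox5a* had 6.54, 6.35 and 6.56 in WT and 5.86, 5.71 and 5.72 in IG27 cells (−0.72 ± 0.08 SE, adjusted p = 0.000297). *Cox7b* fell by 0.73 ± 0.06 (SE; adjusted p = 9.01e-05). None of these groups of values overlapped. *Cox4i2*, the form of subunit 4 known from lung and from low oxygen, differed by 0.05 (95% interval −0.22 to 0.33), and its level relative to *Cox4i1* shifted by 0.72 without overlap between the groups (two-sided exact permutation p = 0.1). *Cox6b1* and its testis form *Cox6b2* differed by 0.01 (95% interval −0.27 to 0.28) and 0.08 (95% interval −0.09 to 0.26). The shift between these last genes was 0.08, with overlapping groups (two-sided exact permutation p = 0.8). *Cox8a* differed by 0.04 with a wide interval (95% interval −0.37 to 0.45), and *Cox7b2*, another testis form, by 0.27 (95% interval −0.18 to 0.71). The level of *Cox7b2* relative to *Cox7b* shifted by 0.99 without overlap (two-sided exact permutation p = 0.1). The signs of *Cox4i2*, *Cox6b1*, *Cox6b2* and *Cox8a* changed under some settings. In total, 3 complex IV genes rose (20.0%, against 30.5% of all genes), 4 fell (26.7%, against 40.0%) and 8 were not called. The median difference of 0.04 turned to −0.04 without WT replicate 3 or without IG27 replicate 1.

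**Figure D2:**
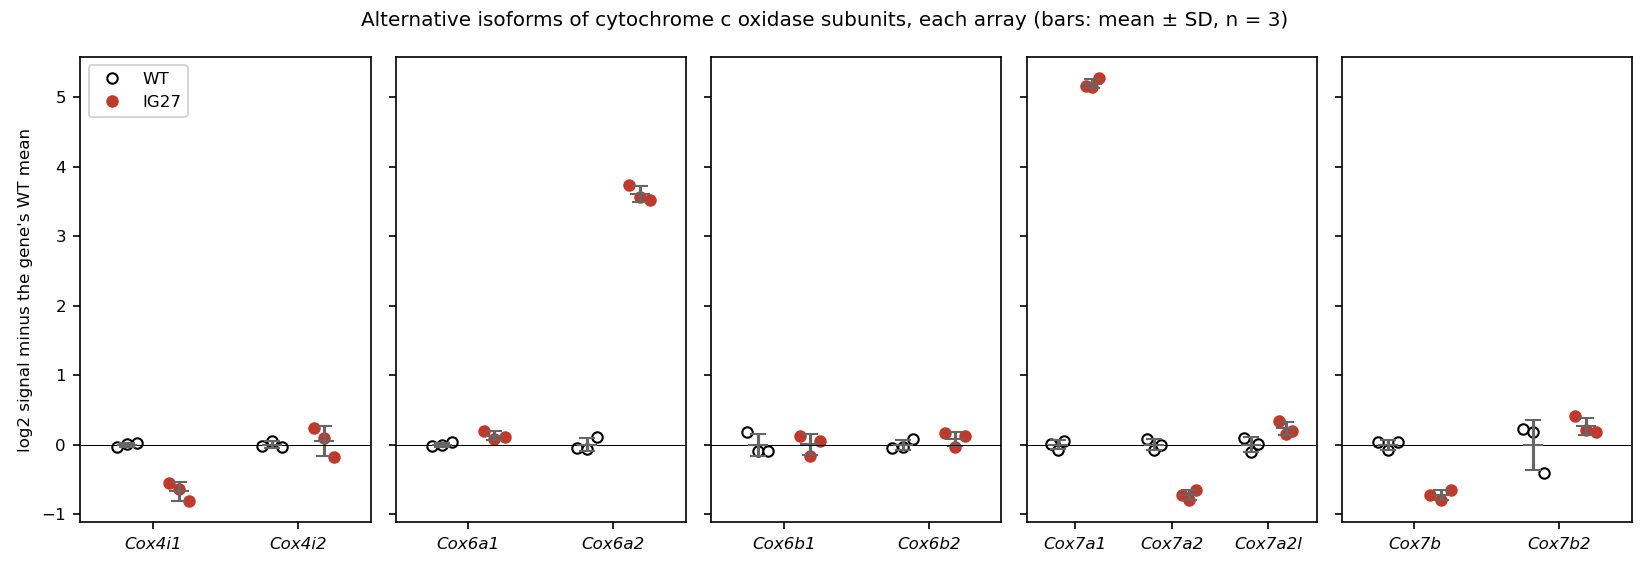
Log2 signal of each array minus the mean of the WT arrays of the same gene, for alternative isoforms of complex IV subunits (open circles, WT; filled circles, IG27; bars, mean ± SD of 3 arrays). *Cox6a2* and *Cox7a1* lie far above 0 in all 3 IG27 arrays, whereas *Cox4i1*, *Cox7a2* and *Cox7b* lie below 0.

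In complex I, 17 genes fell (44.7%), 5 rose (13.2%) and 16 were not called, with a median difference of −0.12. The falls include *Ndufa4l2*, counted here by its symbol, at −0.68 ± 0.21 (SE; adjusted p = 0.0248), which was called under 9 of the 16 alternatives. The share that fell lay near that of all genes (40.0%) and of the genes above the median signal (46.0%). The share that rose lay below theirs (30.5% and 26.1%), but the number of rises depended on the normalization, as given below. The largest fall was that of *Ndufb5*, a subunit of the membrane arm, with log2 signals of 5.67, 5.59 and 5.65 in the WT replicates and 4.46, 4.26 and 4.35 in the IG27 replicates. All WT values lay more than 1 above all IG27 values, and the difference was −1.28 ± 0.06 (SE), a 2.43-fold lower signal (adjusted p = 8.53e-06), with −1.33 at its second probe. *Ndufs6*, an accessory subunit of the part that oxidizes NADH, had 5.57, 5.53 and 5.61 in WT and 4.68, 4.53 and 4.49 in IG27 cells (95% interval of the difference −1.16 to −0.84, adjusted p = 2.71e-05). *Ndufb7*, *Ndufa1* and *Ndufb11*, accessory subunits of the membrane arm, followed with differences of −0.93, −0.91 and −0.86 (adjusted p of 2.20e-05, 4.66e-05 and 0.000110). The values of the 2 groups did not overlap in any of these genes.

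The rises in complex I were smaller than its largest falls. *Ndufab1*, the mitochondrial acyl carrier protein, which also serves fatty acid synthesis, had 1.17, 1.15 and 1.21 in WT and 1.98, 1.84 and 1.76 in IG27 cells, a rise of 0.68 ± 0.07 (SE; adjusted p = 0.000177). *Ndufb9* and *Ndufa6*, whose products belong to the LYR protein family that binds acyl carrier protein, rose by 0.63 ± 0.06 (SE; adjusted p = 0.000190) and 0.51 ± 0.09 (SE; adjusted p = 0.00264). All 3 IG27 values of each of these genes exceeded all WT values. The number of complex I genes called higher depended on the normalization, being 5 of 38 here, 11 after quantile normalization and 13 after normexp background correction. Of all genes, 30.5%, 33.8% and 32.1% were called higher in these settings, in the same order. A share of rises below that of all genes was thus not seen under every normalization.

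The nuclear genes of the catalytic core of complex I, which holds the flavin and the iron-sulfur clusters, did not move together. *Ndufs3* (5.40, 5.17 and 5.20 in WT; 4.49, 4.35 and 4.35 in IG27 cells) fell by 0.86 ± 0.08 (SE; adjusted p = 0.000143). *Ndufs1*, the largest subunit of the NADH-oxidizing part, fell by 0.41 ± 0.07 (SE; adjusted p = 0.00234), and *Ndufs7* by 0.24 ± 0.07 (SE; adjusted p = 0.0231), which was no longer called under 9 of the 16 alternatives. *Ndufs8*, in contrast, had 5.21, 5.14 and 5.25 in WT and 5.76, 5.62 and 5.71 in IG27 cells, a rise of 0.50 ± 0.06 (SE; adjusted p = 0.000438). The flavin-bearing subunit *Ndufv1* had a difference of 0.19 (95% interval −0.01 to 0.38; adjusted p = 0.0762) at the probe used and of 0.36 at its second probe (adjusted p = 0.00300).

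The core gene *Ndufv2* cannot be read from the mean of its replicates. Its log2 signals were 2.03, 5.22 and 5.28 in WT replicates 1, 2 and 3 and 5.39, 5.23 and 5.27 in the IG27 replicates, so that WT replicate 1 alone lay far below all other arrays. The difference of 1.12 ± 0.88 (SE) fell to 0.05 without that array (adjusted p = 0.6). *Ndufa9*, a subunit near the quinone site, showed the same picture with 1.60, 3.63 and 3.25 in WT and 3.38, 3.31 and 3.15 in IG27 cells, and its difference of 0.45 became −0.16 without WT replicate 1 (adjusted p = 0.34). The spots of both genes on that array had no outlier flag and were well above background. Of all genes tested, 80 lay more than 1.5 below both other WT arrays in WT replicate 1, and each of the other arrays had 2 to 14 genes that far below the rest of its own group.

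In complex III, 3 of 8 genes fell (37.5%, against 40.0% of all genes), 1 rose (12.5%, against 30.5%) and 4 were not called. The median difference was −0.16. *Uqcrb*, a small subunit near the ubiquinone site, had log2 signals of 5.71, 5.65 and 5.75 in WT and 4.74, 4.38 and 4.56 in IG27 cells. It fell by 1.15 ± 0.10 (SE), or 2.21-fold (adjusted p = 8.77e-05), with a difference of −0.84 at its second probe. *Uqcrc1*, a core protein facing the matrix, had 5.01, 4.88 and 5.00 in WT and 3.96, 3.87 and 3.90 in IG27 cells and fell by 1.05 ± 0.06 (SE), or 2.07-fold (adjusted p = 1.11e-05). Its fellow core protein *Uqcrc2* differed by −0.02 (95% interval −0.18 to 0.13). The Rieske iron-sulfur protein gene *Uqcrfs1* fell by 0.19 ± 0.06 (SE; adjusted p = 0.0300) and the hinge protein gene *Uqcrh* rose by 0.19 ± 0.07 (SE; adjusted p = 0.0460). The calls of these last genes were lost under 9 and 7 of the 16 alternatives. The 2 strong falls of complex III thus stood beside 6 genes whose differences ran from −0.20 to 0.19.

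Falls made up most of the ATP synthase genes. Of its 17 genes, 11 fell (64.7%), against 40.0% of all genes and 46.0% of the genes above the median signal. The median difference was −0.30, and that of the genes above the median signal was −0.13. None rose in limma (0 also when p was left unadjusted at 0.05), although quantile normalization and normexp each called 1 gene higher, and the second probe of *Atp5md*, a small membrane subunit, gave 0.17 (adjusted p = 0.0471). The F1 head, which carries the catalytic sites, fell in all 5 genes, of which *Atp5b* and *Atp5e* were not called when the row of the slide was a block (adjusted p = 0.0582 and 0.153). *Atp5a1*, the alpha subunit, had log2 signals of 6.34, 6.30 and 6.35 in WT and 5.76, 5.81 and 5.67 in IG27 cells (−0.58 ± 0.05 SE, adjusted p = 0.000137). *Atp5b*, the catalytic beta subunit, had 7.17, 7.29 and 7.28 in WT and 7.08, 6.79 and 6.77 in IG27 cells (−0.37 ± 0.10 SE, adjusted p = 0.0134), with −0.43 at each of its 2 other probes. In *Atp5a1* the groups lay well apart, whereas in *Atp5b* IG27 replicate 1 lay close to WT replicate 1. The gamma subunit gene *Atp5c1* fell by 0.46 ± 0.05 (SE), the delta subunit gene *Atp5d* by 0.31 ± 0.06 (SE) and the epsilon subunit gene *Atp5e* by 0.30 ± 0.08 (SE), with adjusted p of 0.000177, 0.00354 and 0.0143.

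The rotor ring of ATP synthase is built from 1 mature protein that is encoded by *Atp5g1*, *Atp5g2* and *Atp5g3*. *Atp5g3* had 6.49, 6.36 and 6.46 in WT and 5.81, 5.57 and 5.63 in IG27 cells and fell by 0.76 ± 0.08 (SE; adjusted p = 0.000211), the largest fall of the complex. *Atp5g1* had 6.26, 6.22 and 6.14 in WT and 5.89, 5.74 and 5.40 in IG27 cells (−0.53 ± 0.13 SE, adjusted p = 0.00941). *Atp5g2* differed by −0.09 (95% interval −0.25 to 0.07). Relative to *Atp5g2* on the same array, *Atp5g3* shifted by −0.67 and *Atp5g1* by −0.44, with no overlap between the groups and the same smallest two-sided exact permutation p of 0.1. The genes encode the same mature protein from different transcripts, and cross-hybridization among them was not tested.

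Of the 9 stalk and membrane genes of ATP synthase, 4 fell (44.4%, against 40.0% of all genes) and 5 were not called. The largest fall among them was that of *Atp5pb*, subunit b of the peripheral stalk, at −0.47 ± 0.05 (SE; adjusted p = 0.000240), with −0.49 at its second probe. The probes of *Atp5h*, also counted as a fall, differed, with −0.24 at the probe used. Its other probes gave −0.44 (limma adjusted p = 0.0127) and 0.10 (limma adjusted p = 0.52). The members of this group that were not called ranged from −0.15 to 0.14. *Atpif1*, the inhibitor of ATP synthase, which bears another symbol and is no member, differed by 0.03 ± 0.07 (SE; adjusted p = 0.71). All IG27 arrays and WT replicate 2 lay in the same row of the slide. A fit with the row as a block, which compares the IG27 arrays with WT replicate 2 alone, called 6 of 17 ATP synthase genes lower in place of 11, and 26 of 78 members in place of 35. In that fit 33.6% of all genes were called lower, so these shares lay near the background.

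**Figure D3:**
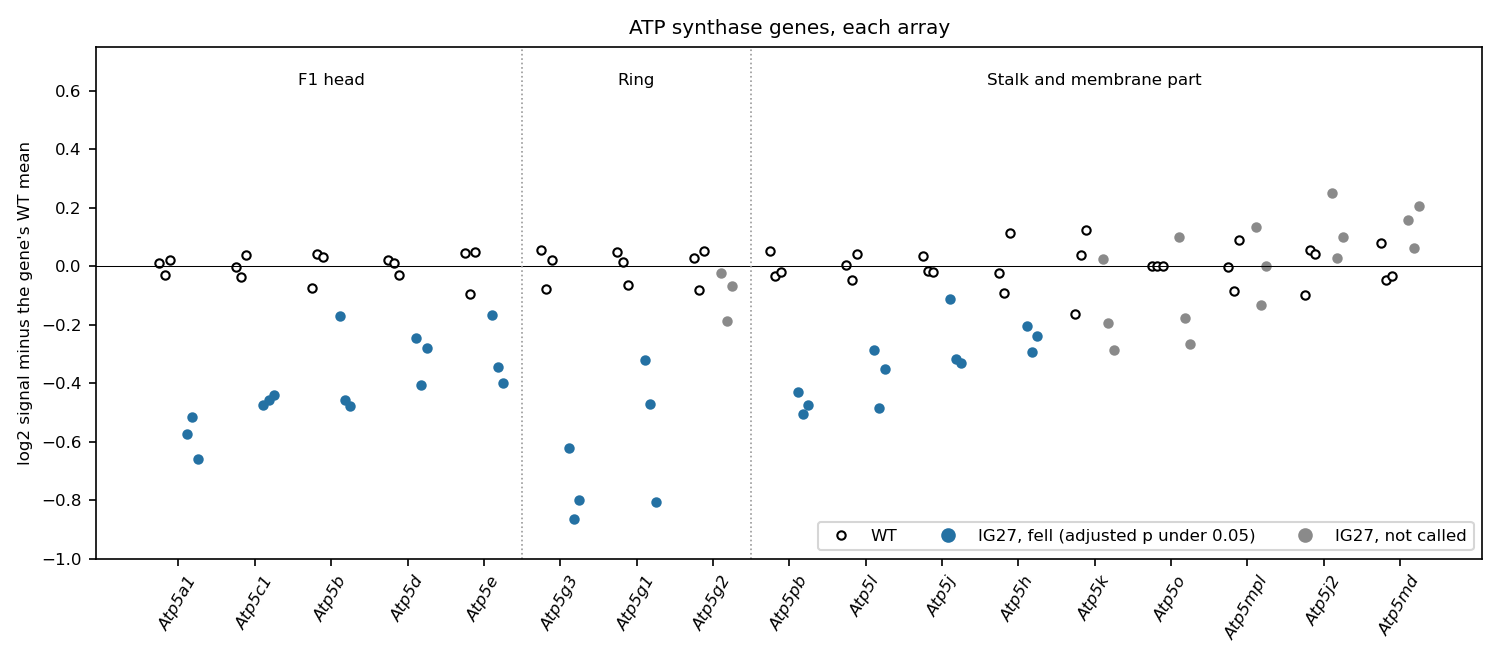
Log2 signal of each array minus the mean of the WT arrays of the same gene for the 17 ATP synthase genes, in the F1 head, the ring and the stalk and membrane part (open circles, WT; filled circles, IG27). All 5 genes of the F1 head fell, by 0.30 to 0.58, while *Atp5g2* of the ring and 5 genes of the stalk and membrane part were not called.

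The called members sorted by direction with the chromosome on which they lie. For each chromosome, the median difference was taken over the tested genes that are not members, and chromosomes were sorted by whether this median was below −0.1, between −0.1 and 0.1, or above 0.1. This sorting was chosen after the values were seen. On the 9 chromosomes with a median below −0.1 (2, 3, 6, 8, 9, 11, 13, 14 and X), 26 of 32 members fell and none rose, with 56.0% of the other genes lower and 17.8% higher. On the 5 chromosomes with a median above 0.1 (4, 7, 15, 17 and 19), 9 of 26 members rose and none fell, with 48.5% of the other genes higher and 19.4% lower. All 9 rises of the members lay on these chromosomes. On the 6 chromosomes between, 9 of 20 members fell and none rose, with 32.4% of the other genes lower and 35.1% higher. Chromosomes 10 and 16 (0.09 each) and 11 (−0.12) lay nearest to the limits of the sorting, and 5 of these 9 falls were on chromosome 10.

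The lowest chromosome medians were those of chromosomes 8, 9 and X, where all 10 members fell and 70.2% of the other genes were lower and 12.8% higher. The median difference was −0.73 for the members and −0.64 for the other genes there. The 4 complex IV genes that fell, *Cox4i1* on chromosome 8, *Cox5a* and *Cox7a2* on chromosome 9 and *Cox7b* on chromosome X, were all among them. On the other 17 chromosomes, 25 of 68 members fell (36.8%) and 9 rose (13.2%), with 35.0% and 33.5% of the other genes. The median of the members was −0.08 there and that of the other genes −0.003. When the median of its chromosome was subtracted from each member, the median was −0.13 over all members and −0.18 in complex V, where it had been −0.30. *Cox7a1* and *Cox6a2*, both on chromosome 7, still stood at 5.07 and 3.48 after this subtraction. *Uqcrb* and *Ndufs6* on chromosome 13 remained at −0.99 and −0.84, *Ndufb5* on chromosome 3 at −0.97, and *Uqcrc1* on chromosome 9 at −0.42. Other falls came closer to their chromosome. *Cox4i1*, *Cox5a*, *Cox7a2* and *Cox7b* went to 0.00, −0.08, −0.09 and −0.14, and *Ndufb7*, *Ndufa1* and *Ndufb11* to −0.26, −0.32 and −0.27. What sets the medians of the chromosomes was not tested.

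**Figure D4:**
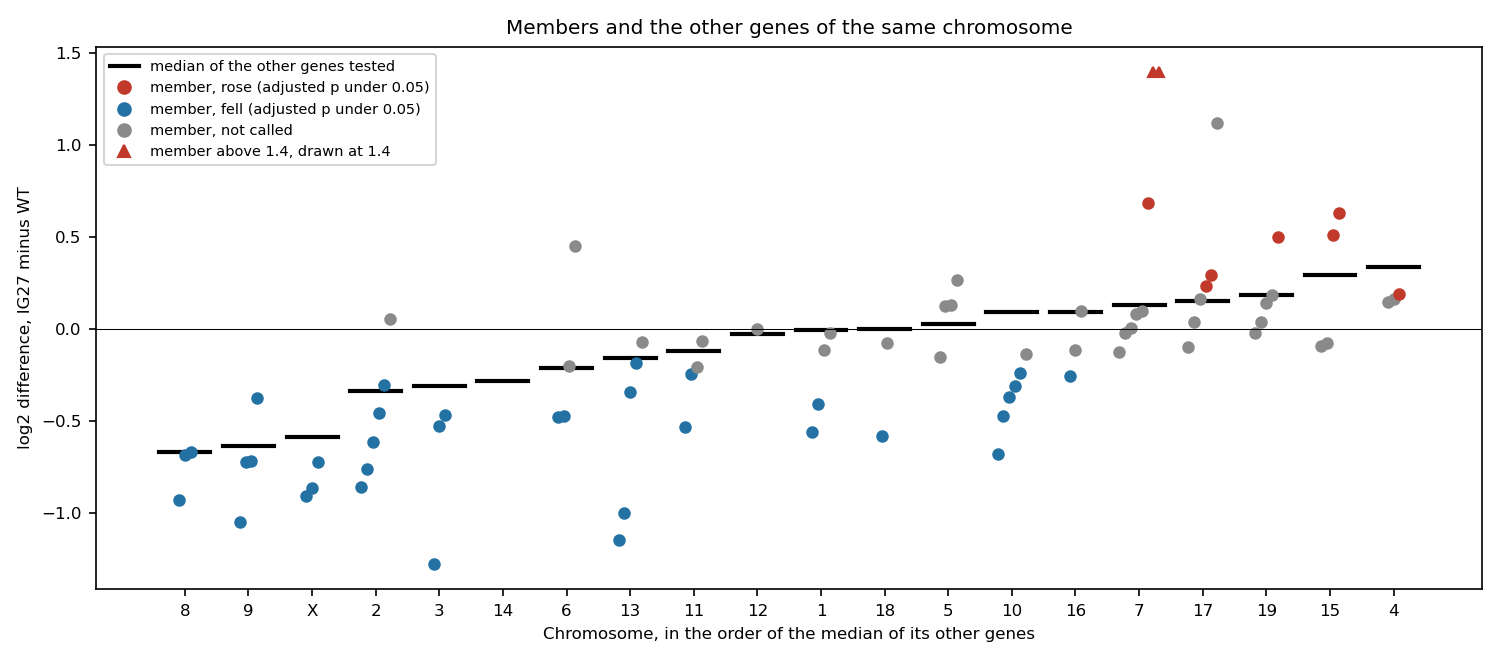
Log2 difference of each tested member (points) by chromosome, with the median of the other tested genes of the same chromosome (black lines), in the order of these medians; the 2 triangles are *Cox6a2* and *Cox7a1*, drawn at 1.4. The falls lie on the chromosomes to the left and the middle, and all 9 rises lie on the 5 chromosomes at the right.

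Motifs of known regulators of respiratory genes were counted in promoters without a test. The members were set beside all genes tested and all genes of the promoter table, both of which include the members. The windows ran from 250 bases before to 50 bases after the start, and 64 of the 78 members and 11808 of all tested genes had an entry. The NRF1 motif GCGCATGCG, on either strand, was present in 8 of 64 members (12.5%) and in 3.68% of the tested genes. The YY1 motif AAGATGGCG was present in 7 members (10.9%) and in 366 of the tested genes, the ETS motif CCGGAAG in 15 members (23.4%) and in 17.8%, and the motif CAAGGTCA of estrogen-related receptors in 3 members (4.69%) and in 1.36%. Over all 27025 genes of the promoter table, the shares were 1.95%, 1.64%, 9.93% and 1.76% in the same order. Of the members that fell, 3 of 29 held the NRF1 motif and 5 of 29 the YY1 motif, among those that rose 0 of 7 held either, and among those not called 5 and 2 of 28. *Ndufs6*, *Ndufs7* and *Uqcrc1* are among the members that fell with a YY1 or NRF1 motif. A match is only a match of letters, and nothing follows from it about the factor.

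The factors that are known to act on these promoters changed unevenly. Of 9 regulators, *Ppargc1b* rose and *Ppargc1a*, *Nrf1* and *Gabpb1* fell. *Ppargc1b*, a coactivator of mitochondrial biogenesis, had −3.07, −3.06 and −3.04 in WT and −0.98, −0.90 and −0.97 in IG27 cells, a rise of 2.11 ± 0.05 (SE; adjusted p = 3.2e-07). Its relative *Ppargc1a* had 1.46, 1.25 and 1.28 in WT and 0.88, 0.80 and 0.76 in IG27 cells, a fall of 0.52 ± 0.07 (SE; adjusted p = 0.00086). These coactivators moved in opposite directions, with no overlap between the groups in either. The factors *Gabpa*, *Esrra* and *Yy1* differed by 0.00, 0.11 and 0.12 (adjusted p of 0.995, 0.0864 and 0.0745). Of 8 genes for the upkeep and transcription of mitochondrial DNA, 3 rose and 2 fell, and *Tfam*, which packages this DNA, rose by 0.25 ± 0.06 (SE; adjusted p = 0.0089). Probes for the subunits encoded in the mitochondrial genome could not be named, and these were not analysed here.

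Complex II and the electron carriers outside the rule moved partly with the members. Complex II oxidizes succinate and feeds ubiquinol to complex III. Its flavoprotein gene *Sdha* had 4.73, 4.69 and 4.73 in WT and 3.75, 3.83 and 3.74 in IG27 cells, a fall of 0.94 ± 0.05 (SE; adjusted p = 9.6e-06). The membrane anchor gene *Sdhd* fell by 1.02 ± 0.08 (SE; adjusted p = 6.2e-05), whereas *Sdhb* and *Sdhc* differed by −0.18 (adjusted p = 0.12) and −0.01 (adjusted p = 0.95). *Sdhd* lies on chromosome 9 and *Sdha* on chromosome 13, whose tested non-member genes had medians of −0.64 and −0.16. *Cyc1*, the cytochrome of complex III, rose by 0.23 ± 0.06 (SE; adjusted p = 0.0096), and *Cycs*, the mobile cytochrome *c*, fell by 0.20 ± 0.06 (SE; adjusted p = 0.031).

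Assembly factors, which build the complexes without remaining in them, were also measured. Of 48 tested, 24 fell and 10 rose, against 40.0% and 30.5% of all genes, with a median difference of −0.17. For complex I, 9 of 15 fell and 4 rose. The largest falls were those of *Ndufaf5*, a methyltransferase-like early factor, at −1.61 ± 0.05 (SE; adjusted p = 1.6e-06), of *Acad9* at −1.14 ± 0.06 (SE; adjusted p = 8.9e-06) and of *Ndufaf3* at −1.04 ± 0.07 (SE; adjusted p = 3.1e-05). For complex IV, 10 of 24 fell and 5 rose, among them *Cox14*, which acts on the mitochondrially encoded first subunit, with a rise of 1.10 ± 0.05 (SE; adjusted p = 5.6e-06), and *Cmc2*, with a fall of 1.04 ± 0.05 (SE; adjusted p = 8.7e-06). For complex III, 2 of 5 fell and none rose, and for complex V, 3 of 4 fell and 1 rose. The assembly genes named here lie on chromosomes whose tested non-member genes had medians of the same sign. These were −0.34 for *Ndufaf5* (chromosome 2), −0.31 for *Acad9* (3), −0.64 for *Ndufaf3* (9), −0.67 for *Cmc2* (8) and 0.30 for *Cox14* (15). The part of the chromosome in these differences was not tested.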

How the data were processed

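RNA was measured on 6 single-color arrays, and groups followed the sample titles. The deposited processed signal is the intensity of each spot as read by the authors with Feature Extraction (version 9.1 per the labels), on a linear scale, without scaling between arrays. The scanner output of IG27 replicate 2 stops after 285 spots, so the deposited value table gave its values; all 255 single-spot probes compared were equal (relative tolerance 1e-04). That table exchanges WT replicates 2 and 3, and the scanner files were followed.

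From the log2 signal the 75th percentile of its array was subtracted, and outlier spots were dropped. A probe was kept if all complete arrays of either group read it well above background, and was named through RefSeq accessions (GRCm38.p6). The brightest probe stood for a gene. *Ndufa2* lacked IG27 replicate 3. The values of 1 member are not reported here. Differences were tested, two-sided, by lmFit and eBayes of limma 3.58.1 (R 4.3.3) without a block, p was adjusted by Benjamini-Hochberg, and 0.05 was the threshold, and the steps were tested on simulated data. The number of arrays limits the precision. Ratios of isoforms were tested by exact permutation in scipy 1.17.1.

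Members, lists and motifs were chosen with earlier results of these data known. Named were, per complex, the 3 largest rises and 5 largest falls without overlap, the core of complex I, *Uqcrfs1*, the isoforms of complex IV, the F1 head, the ring and *Atpif1*, and outside the rule genes past 1 on the log2 scale, complex II, *Cyc1*, *Cycs*, *Ppargc1a* and *Tfam*; other genes were named after their values were seen. Alternatives covered normalization, background correction, filters, probes, blocks and left-out arrays.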

Additional observations from a re-analysis of the deposited data

How the results depend on the processing

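Of the 44 called members, 33 (7 higher and 26 lower) stayed past the threshold in all 16 alternatives that were fitted, and all 44 kept their sign. The calls of *Ndufa4l2*, *Ndufa8*, *Ndufs7*, *Uqcrfs1*, *Uqcrh*, *Cox7a2l*, *Atp5g1*, *Atp5b*, *Atp5e*, *Atp5j* and *Atp5h* were lost in at least 1. For the genes that moved, the cause was not tested. Quantile normalization gave 17 members higher, 11 of them in complex I and 1 in complex V, and medians of −0.0623 in complex III and −0.20 in complex V. Normexp background correction, run on median signals, gave 21 members higher, with 13 in complex I, 2 in complex III, 5 in complex IV and 1 in complex V, and a median of −0.0776 in complex III. Of all genes, 33.8% were called higher after quantile normalization and 32.1% after normexp. With the slide row as a block, 6 complex V genes were lower and the median of complex III was −0.0890. With complete scanner output only, which equals leaving out IG27 replicate 2, no complex III gene was higher and its median was −0.12. No complex III gene was higher without a filter on dim probes, a setting that moved the median of all genes from −0.07 to 0.12. Subtracting the chromosome median, an alternative chosen after seeing the data, gave a median of −0.18 in complex V.

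When each array was left out in turn, complex III had 0 to 1 genes higher and medians from −0.18 to −0.11, and the median of complex IV ran from −0.0416 to 0.0927. *Cox4i2* turned to −0.0295 after quantile normalization and −0.0487 after normexp, and ran from −0.0416 to 0.17 when an array was left out. *Cox6b2* turned to −0.0835 and −0.00321 under the first 2 of these settings. *Cox8a* turned to −0.0720 with the row as a block and ran from −0.14 to 0.17 when an array was left out, *Cox6b1* from −0.0568 to 0.0959 and *Atpif1* from −0.0320 to 0.0771. *Ndufa9* turned to −0.35 with the row as a block and ran from −0.16 to 0.85 when an array was left out.

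Samples with the same replicate number did not deviate together (Pearson r across genes of 0.01, 0.04 and 0.08), so the numbers were not taken as pairs. With the replicate block, 36 members were lower and 10 higher.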
